A study of Mus musculus with 6 samples.

Results

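Lysosomal hydrolases and lysosomal membrane proteins were examined in mouse macrophages without SIRPa, a receptor on myeloid cells that binds CD47 and restrains phagocytosis. The members were a list of 30 genes, matched by symbol to the deposited table, and all 30 were found once among its 54232 genes. They were divided by role into 11 glycosidases, 5 sulfatases, 7 lipid enzymes with their helper proteins, 6 membrane proteins and 1 peptidase. The comparison was between SIRPa knockout (KO) and wild-type (WT) bone marrow derived macrophages, with 3 libraries of each. Both groups came from C57BL/6 mice aged 8 weeks, were grown out of bone marrow for 7 days in medium with 30% L929 supernatant, which supplies macrophage growth factor, and were left untreated. The sources used here give neither the making of the knockout allele nor whether the 3 libraries of a group stem from different mice or cultures. The p-values therefore measure only the spread among these libraries, which can be technical.

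Lysosomes break down what a macrophage engulfs and what it recycles from its own cytoplasm. Most soluble hydrolases are glycosylated in the endoplasmic reticulum, tagged with mannose-6-phosphate in the Golgi and carried to the acidic compartment by mannose-6-phosphate receptors, while heavily glycosylated membrane proteins line the inner face of the organelle. Many of these genes are known targets of the transcription factors TFEB, TFE3 and MITF, which bind E-boxes near transcript starts, among them a palindromic form called the CLEAR element. Loss of a single hydrolase can cause a lysosomal storage disease in which its substrate accumulates, often visibly in macrophages.

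The E-box core CACGTG was sought in RefSeq promoters of GRCm38.p6, each reaching from 250 bases before to 50 after a transcript start, on both strands, which are identical for this palindrome. Of the 27 members with a promoter sequence, 8 held it, with 13 cores in all. It was present in 8 of the 29 promoters of members (27.6%) and in 7.15% of all 32851 promoters. The longer palindrome in which GT precedes and AC follows that core was present in 1 member promoter, in Cln3, and in 0.326% of all promoters. The sequences are shown as a feature shared by a subset of the members. The list of genes was not chosen by promoter sequence. Many such genes are known targets of factors that bind E-boxes, so the higher share is not independent of the choice. They are written 5′ to 3′ on the strand of the gene, and capitals mark the core with those adjoining bases that also match the longer palindrome.
Arsa: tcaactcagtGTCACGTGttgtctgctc
Cln3: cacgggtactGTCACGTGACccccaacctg
Gaa: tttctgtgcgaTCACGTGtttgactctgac
Gla: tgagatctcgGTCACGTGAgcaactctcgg
Glb1: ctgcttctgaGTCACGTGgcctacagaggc
Lamp1: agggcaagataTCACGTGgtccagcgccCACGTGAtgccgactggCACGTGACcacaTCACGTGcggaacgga
Naglu: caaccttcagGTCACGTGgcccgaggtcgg
Sgsh: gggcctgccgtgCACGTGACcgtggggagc

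These stretches lie at chr15:89477425-89477452 on the minus strand (Arsa), chr7:126583340-126583369 on the minus strand (Cln3), chr11:119267811-119267840 on the plus strand (Gaa) and chrX:134601182-134601211 on the minus strand (Gla). The remaining stretches lie at chr9:114401018-114401047 (Glb1), chr8:13159088-13159160 (Lamp1) and chr11:101070009-101070038 (Naglu), all on the plus strand, and at chr11:119355522-119355551 on the minus strand (Sgsh). The cores began between 15 and 227 bases upstream of the RefSeq start. Lamp1, which encodes a major glycoprotein of the lysosomal membrane, had 4 cores within 73 bases. Cln3 and Gla had 2 each, of which the longer match is printed, and the Cln3 cores belong to an internal start of that gene. In the GENCODE M21 annotation, the Naglu stretch lies mostly inside the gene, which begins at 101070012. The Sgsh stretch lies partly inside its gene, which begins at 119355536 on the minus strand. A match describes the letters of the sequence and is not evidence of binding, and no match says only that these letters are not in this window.

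**Figure D1:**
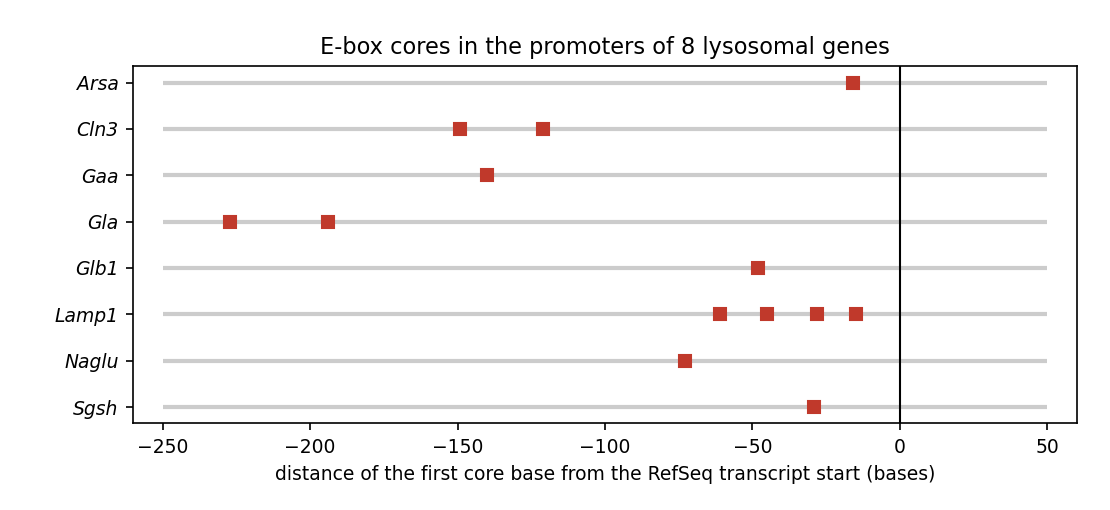
Positions of CACGTG cores (red squares) along the promoters of 8 members, with distance from the RefSeq transcript start in bases on the x axis and the promoter window as a grey line. Lamp1 carries 4 cores close to its start, while those of Gla lie farthest upstream, at 194 and 227 bases.

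Libraries held 28653015 to 31401080 reads assigned to genes in KO and 34102444 to 67446846 in WT, as recovered from the normalized counts, which are the authors' read counts divided by a size factor for each library. Sirpa, the targeted gene, had normalized counts of 2102, 2112 and 2010.4 in KO libraries, and of 110498, 114095 and 94737 in WT ones, so the targeted transcript went with the labels. All 10 macrophage markers examined passed the filter on low values, and their summed normalized count was 999123 to 1165455 in KO and 1124075 to 1314186 in WT. Most of that sum was Lyz2, at 697991 ± 68144 in KO and 808023 ± 124186 in WT (SD, n = 3 each). Of the 10 markers, 6 had a log2 fold change above 0 and 4 below. Markers of other cells were low in both groups. The sum over 8 neutrophil and progenitor markers was 342 to 478 in KO and 283 to 599 in WT, over 5 fibroblast markers 2.41 to 8.02 in KO and 1.07 to 13.04 in WT, over 5 B cell markers 53.0 to 69.9 in KO and 45.6 to 61.0 in WT, and over 5 T and NK cell markers 10.8 to 30.0 in KO and 11.8 to 27.2 in WT, with Ly6g and Ncr1 at 0 in all 6 libraries. Sums over 4 monocyte markers (12323 to 12595 in KO and 12083 to 14860 in WT) and 5 dendritic cell markers (2717 to 3806 in KO and 1921 to 5193 in WT) were higher, and came mainly from Ccr2, F13a1 and Itgax, which macrophages also express. No marker passed the test, but 2 did not overlap between groups, 1 of 10 macrophage markers and 1 of 4 monocyte markers. Over all genes tested, 4.66% did not overlap in either direction (2.71% lower and 1.96% higher in KO). Ccr2 was lower in KO in that sense, at 7883 ± 827 in KO and 9844 ± 872 in WT, and the macrophage marker Mrc1 was higher, at 28075 ± 2901 in KO and 20586 ± 5495 in WT (SD, n = 3 each). F13a1 lay opposite to Ccr2, at 4480 ± 755 in KO and 3219 ± 1224 in WT, with overlap. By limma, the linear model used below, the unadjusted p was 0.027 for Mrc1, 0.020 for Ccr2 and 0.048 for F13a1. An unadjusted p under 0.05 was thus found for 1 of 10 macrophage and 2 of 4 monocyte markers, against 1.52% of all genes tested. No marker of the other cells had one. The part of these markers in the results was not tested. In bulk RNA, fewer cells of a type and less RNA per cell cannot be told apart.

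Lysosomal transcripts were abundant in both groups. The 30 members together held 1.70, 1.73 and 1.57% of the reads assigned in KO libraries, against 1.69, 1.75 and 1.69% of those in WT libraries, so that KO replicate 3 was the lowest of the 6 and the other KO libraries lay within the WT range. Per kb of annotated exon, all 30 members ranked in the upper 50% of 13521 genes and 18 in the top 10%. Psap, the precursor of the saposins that present sphingolipids to their hydrolases, was the highest at 53304 normalized counts per kb in KO and 56609 in WT, which is rank 22. Lamp1 followed at 27617 in KO and 28713 in WT (rank 37), then Hexa at 19450 in KO and 21756 in WT (rank 50) and Lipa at 11540 in KO and 11924 in WT (rank 101). The lowest were Smpd1, acid sphingomyelinase, at 317 per kb in KO and 337 in WT, and Manba, beta-mannosidase, at 357 in KO and 340 in WT. These per kb levels divide by all annotated exon bases of a gene, so unused exons lower them.

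**Figure D2:**
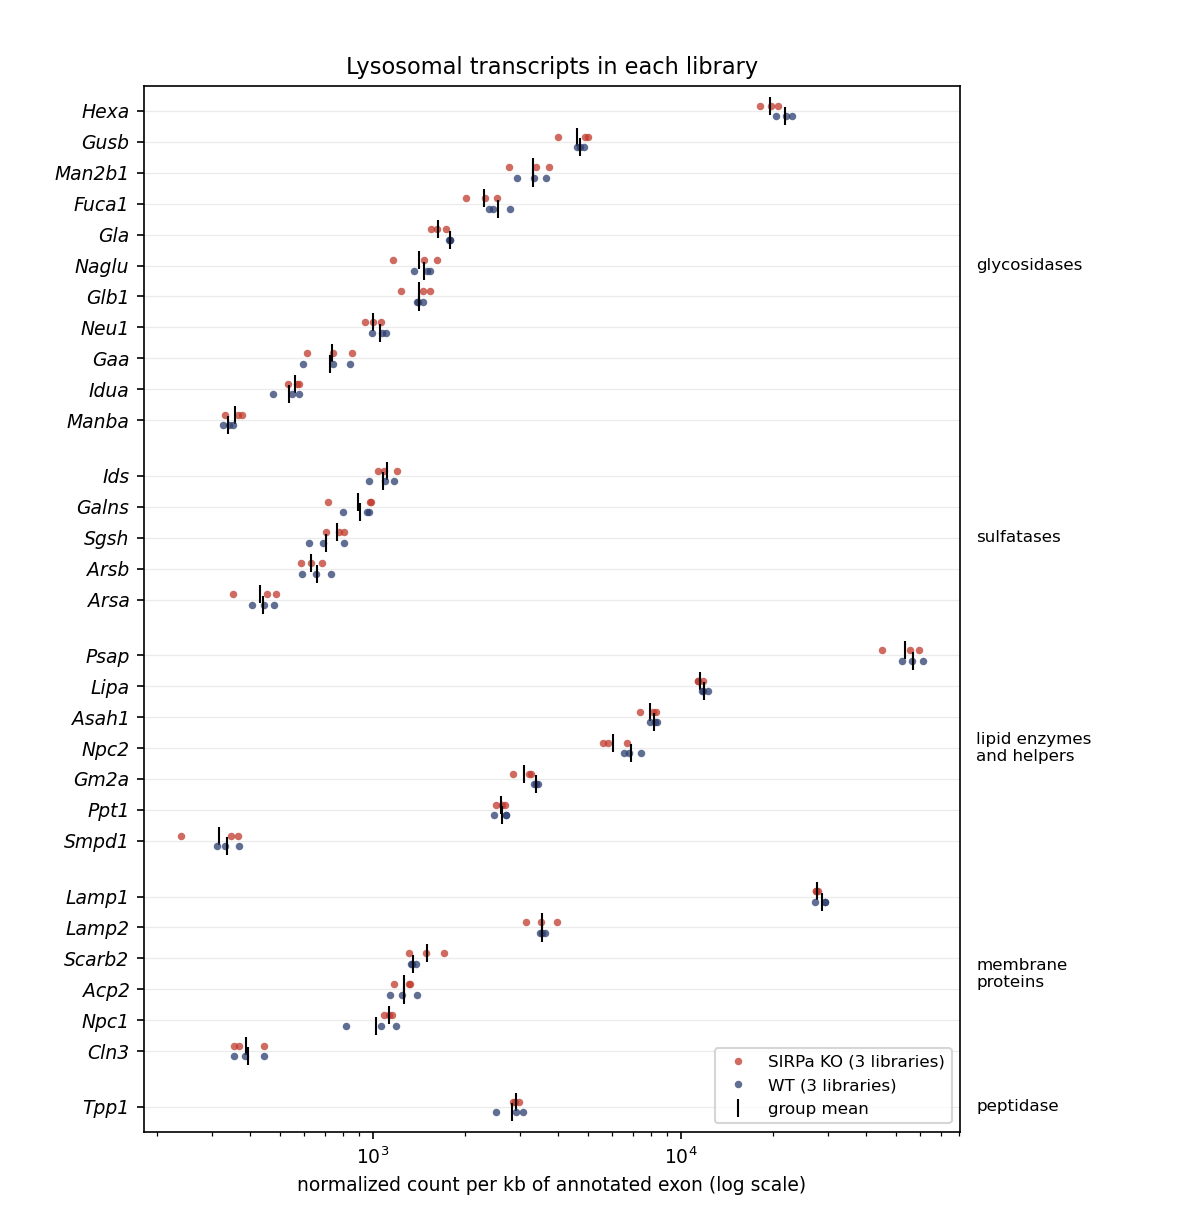
Normalized counts per kb of annotated exon (log scale) for the 30 members in each of 3 KO libraries (red, upper row of each gene) and 3 WT libraries (blue, lower row), with group means as black bars. The levels span from Smpd1, at 317 in KO and 337 in WT, to Psap, at 53304 in KO and 56609 in WT, and the groups overlap for every gene except Gla and Gm2a.

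No member passed the test. With limma, a linear model fitted to the log2 normalized counts of all 13527 genes that passed a filter on low values, 0 of 30 members were higher in KO and 0 lower (adjusted p threshold 0.05). Over that whole table the rule called 0% of genes higher and 0.00739% lower, namely Sirpa alone. At an unadjusted threshold of 0.05 there were likewise 0 of 30 members, against 1.52% of all genes tested (0.688% higher and 0.828% lower in KO). The smallest unadjusted p of a member was 0.120 by limma, for Npc2, and each of the 30 had an adjusted p of 0.9998. On the recovered reads, edgeR called 0 of 30 members with adjustment (0.00739% of all genes) and 0 without it (1.58%). DESeq2 was run without the filter on low values and gave p-values for 24603 genes. It called 0 of 30 members with adjustment (0.00406% of those genes) and 0 without it (0.882%). The authors' deposited table likewise lists 0 of 30 members under the adjusted threshold, and its smallest unadjusted p of a member is 0.112.

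The 3 libraries of each group did not overlap for 2 members, Gla and Gm2a, which were lower in KO in that sense (6.67% of the members, against 4.66% of all genes tested in either direction and 2.71% lower in KO). No member was separated in the other direction, against 1.96% of all genes. Both genes act on glycosphingolipids. Gla encodes alpha-galactosidase A, which removes the terminal galactose of globotriaosylceramide, and lies on chromosome X from 134588149 to 134601125 on the minus strand of GRCm38. Its KO libraries held 5281, 5642 and 5042 normalized counts, against 5769.9, 5839.6 and 5817 for the WT libraries. The highest KO library thus stood just under the lowest WT library, and the WT libraries lay close together. The mean was 5322 ± 302 in KO and 5809 ± 35.5 in WT (SD, n = 3 each). On the log2(value + 1) scale the difference was -0.13 (SE 0.10, 95% interval -0.34 to 0.09), with an unadjusted p of 0.215 by limma. Gm2a encodes the GM2 activator, which lifts the ganglioside GM2 out of the membrane for beta-hexosaminidase A, and lies on chromosome 11 from 55098115 to 55113029 on the plus strand. Its libraries held 13236, 13453 and 11783 in KO, against 14244, 13802 and 13975 in WT, so that 2 KO libraries lay close under the WT range and KO replicate 3 well below it. The mean was 12824 ± 908 in KO and 14007 ± 223 in WT (SD, n = 3 each), a log2 difference of -0.13 (95% interval -0.35 to 0.10), which was -0.070 without KO replicate 3.

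Glycosidases, which trim sugars from glycoproteins, glycolipids and glycosaminoglycans, gave values in both directions. Among 11 members 0 rose and 0 fell, and the median log2 fold change was -0.039, against -0.0061 over all tested genes. Hexa, the alpha subunit of beta-hexosaminidase A, had 39047, 41258 and 36158 normalized counts in KO, against 43849, 40734 and 45692 in WT. The groups overlapped through KO replicate 2, which exceeded WT replicate 2. Its mean was 38821 ± 2557 in KO and 43425 ± 2506 in WT (SD, n = 3 each), a log2 difference of -0.16 (95% interval -0.41 to 0.09). Fuca1, which removes fucose from glycoproteins, held 7597, 8317 and 6592 in KO, against 8049, 7824 and 9157 in WT, so that KO replicate 2 lay inside the WT range. Its log2 difference was likewise -0.16 (95% interval -0.42 to 0.11), and -0.066 without KO replicate 3 or -0.088 without WT replicate 3.

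Among the other glycosidases, those with the lowest and highest log2 fold changes were Neu1, the sialidase, at -0.077, and Manba at 0.073. Neu1 averaged 3740.4 ± 220 in KO and 3944 ± 203 in WT, and Manba 2492 ± 162 in KO and 2367 ± 88.3 in WT (SD, n = 3 each). Gusb (beta-glucuronidase) averaged 21005 ± 2508 in KO and 21479 ± 589 in WT. Naglu and Idua take part in heparan sulfate breakdown. Naglu averaged 3765 ± 617 in KO and 3895 ± 233 in WT, and Idua (alpha-L-iduronidase) 2348 ± 101 in KO and 2246 ± 222 in WT. Gaa, which degrades glycogen, averaged 3530 ± 594 in KO and 3470 ± 600.2 in WT. Glb1 (beta-galactosidase) averaged 4236 ± 458 in KO and 4256 ± 113 in WT, and Man2b1 (alpha-mannosidase) 26529 ± 3946 in KO and 26525 ± 2871 in WT. The sign of the log2 difference of these last 2 genes turned when values were rescaled to equal medians.

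Sulfatases remove sulfate groups from glycosaminoglycans and sulfatide, after SUMF1 has converted a cysteine of their active site to formylglycine. Here 0 of 5 rose and 0 fell (median log2 fold change -0.035). Sgsh, the N-sulfatase of heparan sulfate, had 3564, 3425 and 3118 normalized counts in KO, against 3046, 3553 and 2739 in WT. All KO libraries exceeded WT replicates 1 and 3, while WT replicate 2 lay between KO replicates 1 and 2. The mean was 3369 ± 228 in KO and 3113 ± 411 in WT (SD, n = 3 each), a log2 difference of 0.12 (95% interval -0.15 to 0.39). It was 0.22 without WT replicate 2, 0.032 without WT replicate 3 and 0.078 without KO replicate 1. Ids, which acts on sulfated iduronate, held 6132, 5302 and 5562 in KO, against 5593, 5994 and 4975 in WT. Arsb, the sulfatase of dermatan sulfate, held 3793, 3524 and 4130.5 in KO, against 3546, 3948 and 4424 in WT. For both the groups ran through each other, and the log2 differences were 0.039 (95% interval -0.21 to 0.28) for Ids and -0.055 (95% interval -0.31 to 0.20) for Arsb. Arsa, the sulfatase of sulfatide, held 1665, 1781 and 1299 in KO, against 1632, 1755 and 1492 in WT, with KO replicate 3 lowest and KO replicate 2 highest. Galns, a sulfatase of keratan sulfate, averaged 2370 ± 407 in KO and 2412 ± 247 in WT (SD, n = 3 each).

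The lipid enzymes and their helper proteins had group means below WT for all 7 members, with 0 past the test. A log2 fold change below 0 was found for all 7, against 51.8% of all tested genes. The median log2 fold change of this role group was -0.093, against -0.0061 over all tested genes. It lay between -0.17 and -0.039 with any single library omitted. In at least 1 such fit the values of Asah1, Smpd1, Ppt1 and Psap were above 0. Under equal medians the log2 difference of Ppt1 was no longer below 0. Npc2, the soluble protein that carries cholesterol to NPC1, had the lowest fold change of all 30 members. It held 31584, 36518 and 30371 normalized counts in KO, against 36811, 35652 and 40419 in WT. KO replicates 1 and 3 lay below the WT range and KO replicate 2 inside it. The mean was 32824 ± 3256 in KO and 37627 ± 2486 in WT (SD, n = 3 each), which puts KO at 87.2% of WT. The log2 difference was -0.20 (SE 0.12, 95% interval -0.46 to 0.06).

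Psap held 152061, 162828 and 123913 normalized counts in KO, against 154468, 167680.4 and 143856 in WT. KO replicate 3 was the lowest of the 6 libraries, and without it the log2 difference was 0.021 in place of -0.093. Smpd1 was likewise lowest in that library, with 1159.8, 1219 and 797 in KO, against 1045, 1224 and 1105 in WT. Its log2 difference of -0.11 (95% interval -0.47 to 0.25) was 0.083 without KO replicate 3. Lipa, the acid lipase that frees cholesterol and fatty acids from lipoprotein esters, held similar values in all libraries, at 78243 ± 1479 in KO and 80843 ± 1852 in WT (SD, n = 3 each). Asah1, acid ceramidase, averaged 26945 ± 1671 in KO and 27796 ± 725 in WT. Ppt1, which removes palmitate from proteins, averaged 9583 ± 315 in KO and 9659 ± 502 in WT.

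Membrane proteins lay on both sides of WT, with 0 of 6 past the test and a median log2 fold change of -0.00072. Lamp1, on chromosome 8 from 13159161 to 13175338 on the plus strand, held 74553, 73615 and 73456 normalized counts in KO, against 78709, 73010.2 and 78706 in WT. The KO libraries lay within a narrow range, just above WT replicate 2 and below the other WT libraries. The mean was 73875 ± 593 in KO and 76808 ± 3289 in WT (SD, n = 3 each), a log2 difference of -0.055 (95% interval -0.31 to 0.20). Npc1, the membrane protein that moves cholesterol out of the lysosome, held 13114, 12821 and 12269.8 in KO, against 12050.5, 13467 and 9261 in WT. The KO libraries lay close together inside the wide WT range. Its log2 difference of 0.15 (95% interval -0.15 to 0.46) was the highest among the members, and without WT replicate 3, the lowest of the 6, it was -0.0010. Scarb2 (LIMP-2), which carries glucocerebrosidase to the lysosome, held 9348, 8239.9 and 10704 in KO, against 8714, 8347 and 8415 in WT. KO replicates 1 and 3 were above all WT libraries and KO replicate 2 below them. Its mean was 9431 ± 1234 in KO and 8492 ± 195 in WT (SD, n = 3 each), a log2 difference of 0.14 (95% interval -0.11 to 0.40). It was 0.24 without KO replicate 2 and 0.048 without KO replicate 3.

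Lamp2, the partner of LAMP1 and receptor of chaperone-mediated autophagy in its LAMP2A form, averaged 33792 ± 3908 in KO and 33961 ± 621 in WT (SD, n = 3 each). Acp2, an acid phosphatase made as a membrane protein, averaged 6574 ± 437 in KO and 6530.5 ± 649 in WT, and Cln3, the multi-pass membrane protein mutated in juvenile Batten disease in humans, 2248 ± 279 in KO and 2281 ± 260 in WT. The sign of the log2 difference turned for Acp2 under rescaling by the trimmed mean of M values (TMM) and for Lamp2 under equal medians. Tpp1, a peptidase that removes tripeptides from the N-terminus of its substrates, held 14763, 14997 and 15457 in KO, against 15910.5, 15085 and 12971 in WT, a log2 difference of 0.045 (95% interval -0.20 to 0.29). The KO libraries lay inside the WT range.

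**Figure D3:**
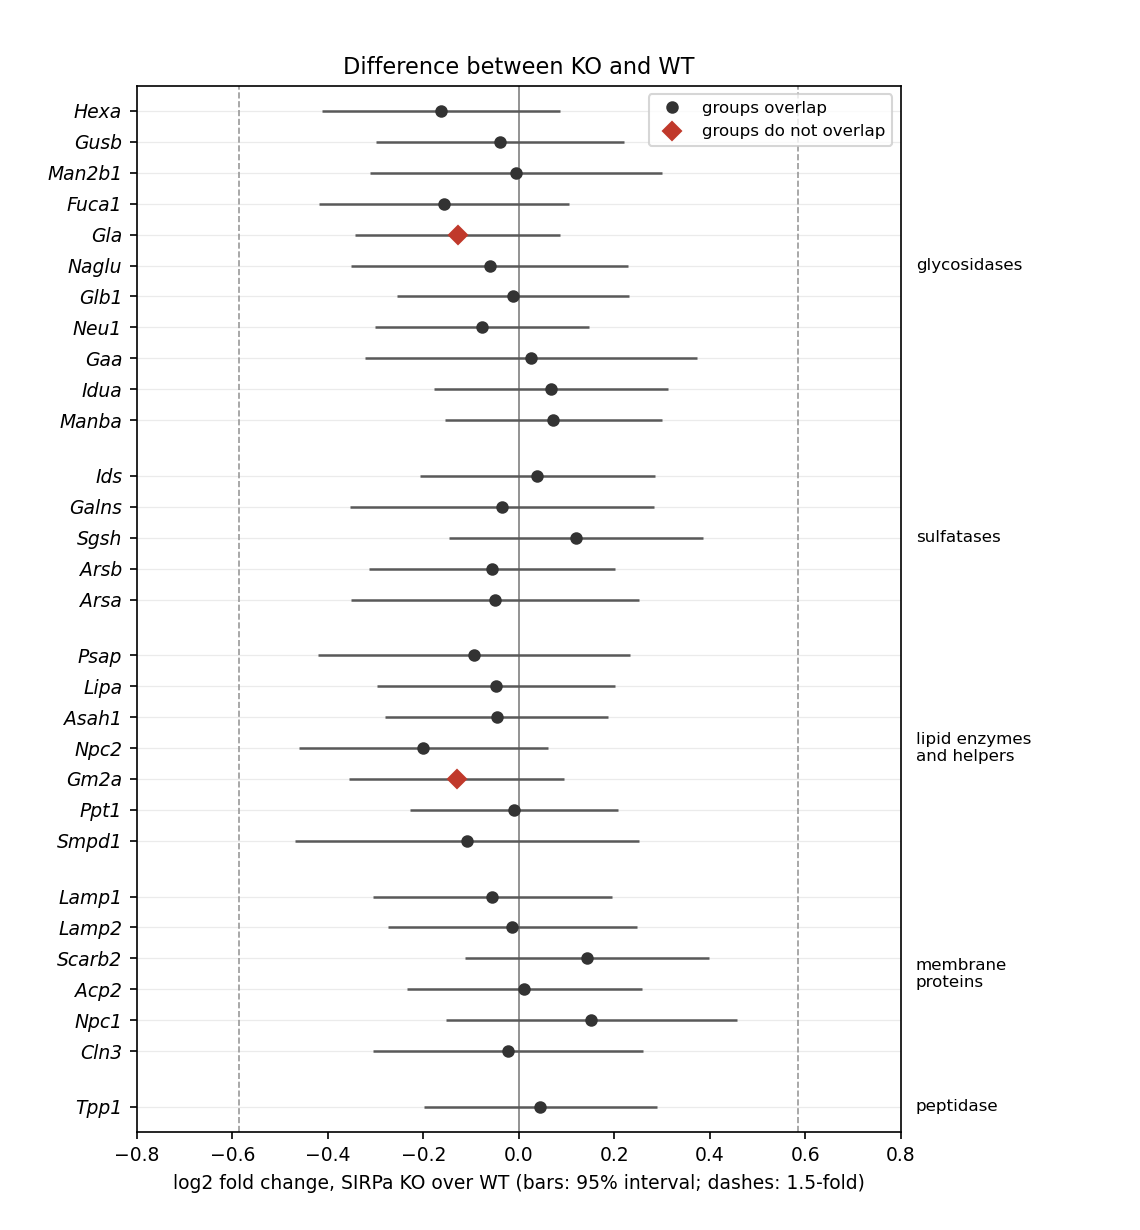
Log2 fold changes of the 30 members, KO over WT, as points with 95% intervals from limma, grouped by role; dashed lines mark 1.5-fold. Every interval includes 0 and lies inside the dashed lines, and the 2 members whose groups do not overlap, Gla and Gm2a, are drawn as red diamonds.

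The intervals were narrow. All 30 members had a 95% interval that stayed inside 1.5-fold up or down, against 69.1% of the 13526 tested genes other than Sirpa and 94.7% of the 5796 whose mean normalized count was 1000 or more. The lowest bound was that of Smpd1, at 0.722 of the WT level, and the highest that of Npc1, at 1.37-fold. The median SD within groups was 0.12 on the log2 scale for the members and 0.15 for genes with a mean of at least 1000. Every member had at least 661 reads in each library.

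Members differed together between libraries of a single group. KO replicate 3 was the lowest of the 6 libraries for 13 members, 43.3% against 27.2% of all tested genes, and WT replicate 3 for 9, 30.0% against 22.3%. WT replicate 1 was the lowest for 0 members, against 9.38% of all tested genes. In KO replicate 3 the median deviation of the members from their 6-library mean was -0.097 on the log2 scale, against -0.0027 over all tested genes. Below that mean lay 10 of 11 glycosidases (median -0.19) and 5 of 7 lipid genes (median -0.18), with Smpd1 at -0.44, Galns at -0.32, Naglu at -0.30, Arsa at -0.30 and Psap at -0.28. Scarb2 and Lamp2 went the other way in that library, at 0.26 and 0.16, and the membrane proteins as a group had a median of -0.0064. In WT replicate 3, the deepest library, the lowest values were those of Npc1 at -0.38 and Gaa at -0.29, while Fuca1, Npc2 and Arsb stood at 0.22, 0.21 and 0.19.

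**Figure D4:**
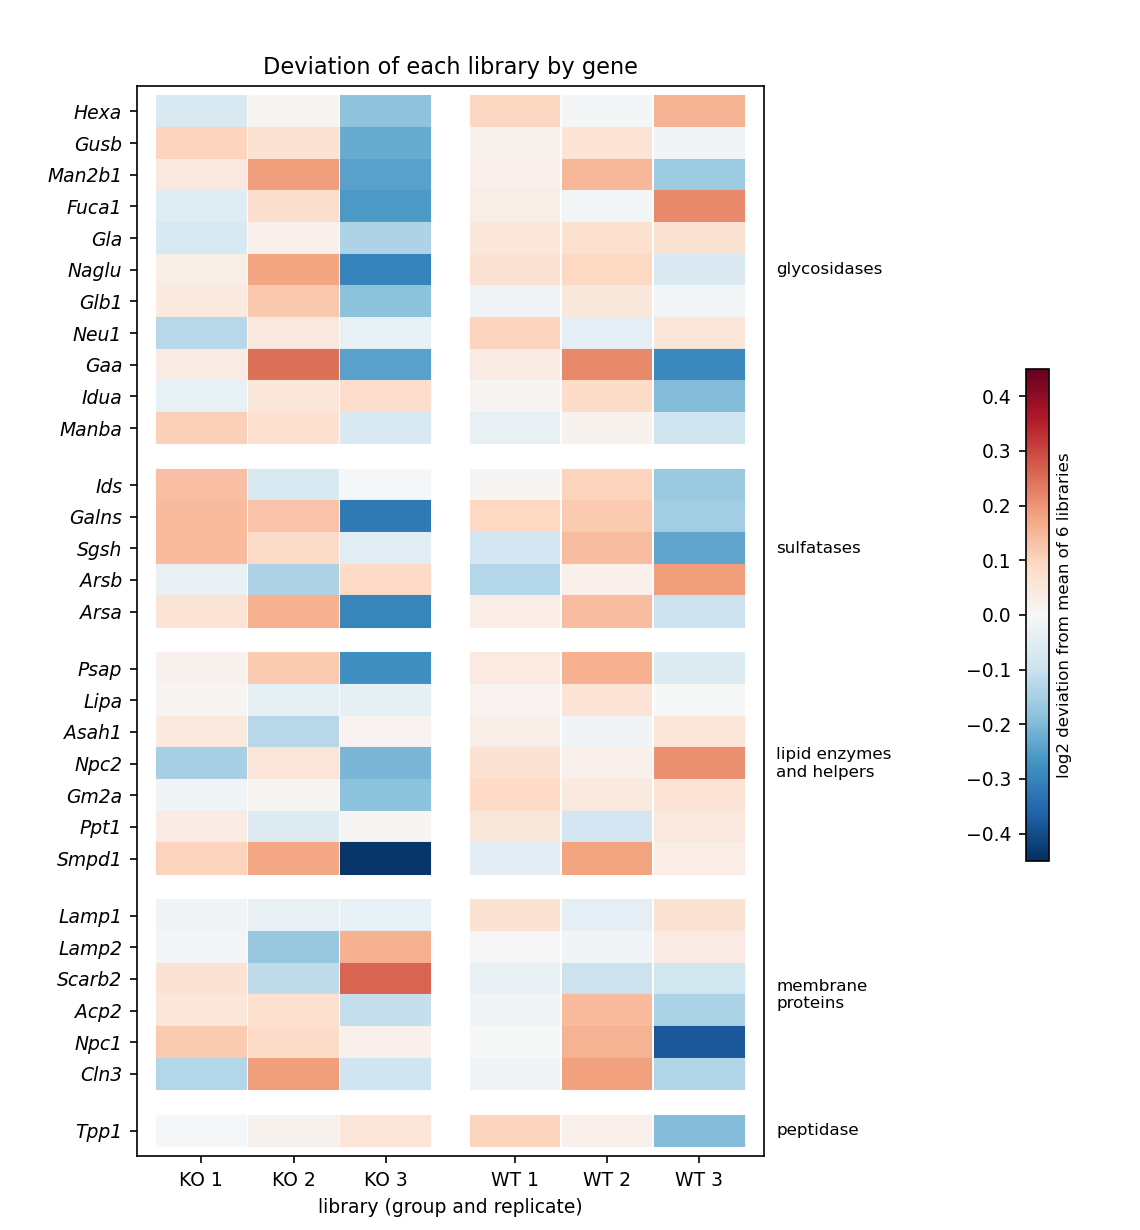
Deviation of each library from the 6-library mean on the log2 scale (colour, blue for lower and red for higher) for the 30 members in rows, with the 3 KO libraries left of the 3 WT libraries. KO replicate 3 is blue for most glycosidases and for Smpd1, Galns and Psap but red for Scarb2, and WT replicate 3 is bluest for Npc1.

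Over the list, 21 of 30 members had a log2 fold change below 0, 70.0% against 51.8% of all tested genes. The median log2 fold change was -0.037, against -0.0061 over all tested genes. This count depended on KO replicate 3. Without that library 12 members were below 0 and the median was 0.035, with glycosidases at 0.064 and sulfatases at 0.086. The members below 0 numbered 22 after TMM rescaling and 17 with equal medians, and the median of all tested genes then stood at -0.026 and 0.013. Members whose promoter held the CACGTG core had a median log2 fold change of -0.036 (8 genes, -0.13 to 0.12), and the 19 without it in the window -0.039 (-0.20 to 0.14).

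Lysosomal genes outside the member list did not pass the test either. Of 14 other hydrolases 0 rose and 0 fell (median log2 fold change -0.053). Galc, which cleaves galactosylceramide, averaged 7206 ± 806 in KO and 6322 ± 448 in WT (SD, n = 3 each), a log2 difference of 0.19. Of 12 genes of enzyme maturation and delivery, 0 rose and 0 fell (median -0.022). Among them, Gnptab, a subunit of the enzyme that starts the mannose-6-phosphate tag, averaged 8528 ± 644 in KO and 7656 ± 792 in WT, and Igf2r, a receptor of that tag, 7499 ± 584 in KO and 6717 ± 1552 in WT. Of 8 other membrane proteins, 0 rose and 0 fell (median -0.0045), with Tmem192 at 1540.4 ± 161 in KO and 1750.1 ± 280 in WT and Laptm4a at 11397 ± 479 in KO and 12543 ± 1289 in WT.

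The 4 transcription factors of the MiT/TFE family were all expressed, and 0 rose and 0 fell (median -0.011). Tfeb had 1371, 1409 and 1049.8 normalized counts in KO, against 1368, 1499 and 1349.6 in WT. KO replicate 3, in which most glycosidases were low, was also the lowest for Tfeb, and the other KO libraries lay inside the WT range. Whether Tfeb and the members are linked in KO replicate 3 was not tested. Tfec averaged 249 ± 29.8 in KO and 235 ± 48.5 in WT (SD, n = 3 each), and Tfe3 5089 ± 111 in KO and 5100.3 ± 201 in WT. Mitf averaged 4017 ± 361 in KO and 4084 ± 534 in WT.

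Counting may blur some members. In GENCODE M21, 11 of 30 share exon bases with a neighbouring gene, and while the library kit keeps strand, whether the counting used it is not stated in the sources used here. In 2 cases the neighbour was the more abundant gene. Ppt1 (mean 9621 over the 6 libraries) shares 129 bases with Cap1 (71325), and Cln3 (2264) shares 442 bases with Apobr (11214), both on the opposite strand. Glb1 (4246) shares 165 bases with Tmppe (350) on the same strand, where counting by strand cannot separate them.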

How the data were processed

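The mRNA of 3 SIRPa KO and 3 WT macrophage libraries, made with a stranded mRNA kit per the labels' protocols, was analysed from the authors' deposited table, with groups and replicate numbers from the sample titles. The library columns hold a signal, the authors' gene read counts divided by 1 size factor per library, and positive values were whole multiples of 1 step per library (100% within 0.001 reads). The deposited mean column is the mean of these. Per the file headers, the table also holds the authors' log2 fold change, a statistic headed only stat (a score without a fixed range) and p-values. The submitters' processing notes name, without their roles, CASAVA 1.4 and STAR 2.5.1b along with featureCounts 1.6.0 and also DESeq2 1.22.2, on GRCm38, while the design text in the labels names FastQC 0.10.1 and TopHat 2.0.10. The sources used here do not say which aligner made the table, nor the annotation release or strand setting.

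The test was limma 3.58.1 (R 4.3.3) with an intensity trend on log2(normalized count + 1), which understates changes of low genes, as a two-sided test, and p-values were adjusted by Benjamini-Hochberg over the 13527 genes that reached 10 in at least 3 libraries. All 30 members passed that filter. Because the deposited values were not raw counts, edgeR 4.0.16 (quasi-likelihood) and DESeq2 1.42.0 served as alternatives on the recovered reads, and each called 1 gene, Sirpa. Other alternatives were TMM or median rescaling, pseudocounts 0.1 and 10, no filter or a minimum of 50, no trend, the replicate number as a block, and leaving out each library. Replicates of a group all differed beyond counting noise, with a chi-square of at least 13.4 times its degrees of freedom. The script was tested on simulated counts. Exon lengths, coordinates and overlaps come from GENCODE M21 (GRCm38), which held 54165 of the IDs, and promoter sequences from RefSeq (GRCm38.p6). Values in every library are given for Tpp1, for the 3 members of each role group with the smallest p and the 1 with the highest level per kb, and for members whose groups do not overlap. Of other lists, the 2 genes with the smallest p are named, except 1 that is not reported here, and Tfe3 and Mitf were added after their values were seen. Members and lists were chosen with earlier results of these data known.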

Additional observations from a re-analysis of the deposited data

How the results depend on the processing

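Under all 16 alternatives 0 members were called, and among all genes 0 were called higher and 1, Sirpa, lower. With each library omitted once, the median log2 fold change ran from -0.079 to 0.035 over all members, -0.10 to 0.064 over glycosidases, -0.052 to 0.086 over sulfatases, -0.17 to -0.039 over lipid genes and -0.019 to 0.075 over membrane proteins, and the members with a value below 0 numbered 12 to 24. In such fits 19 members changed sign, and the cause was not tested. Their log2 fold changes ran from -0.11 to 0.15 for Gaa, -0.077 to 0.077 for Glb1, -0.10 to 0.064 for Gusb, -0.16 to 0.074 for Naglu, -0.10 to 0.12 for Man2b1, -0.013 to 0.13 for Idua, -0.12 to 0.12 for Galns, -0.034 to 0.10 for Ids, -0.14 to 0.086 for Arsa, -0.13 to 0.025 for Arsb, -0.080 to 0.0052 for Asah1, -0.22 to 0.083 for Smpd1, -0.054 to 0.016 for Ppt1, -0.18 to 0.021 for Psap, -0.0010 to 0.27 for Npc1, -0.10 to 0.069 for Lamp2, -0.057 to 0.086 for Acp2, -0.12 to 0.065 for Cln3 and -0.040 to 0.11 for Tpp1. Of the 11 that kept their sign, the values ran from -0.21 to -0.11 for Hexa, -0.12 to -0.034 for Neu1, 0.037 to 0.13 for Manba, -0.23 to -0.066 for Fuca1, -0.17 to -0.090 for Gla, 0.032 to 0.22 for Sgsh, -0.063 to -0.029 for Lipa, -0.17 to -0.070 for Gm2a, -0.28 to -0.15 for Npc2, -0.091 to -0.037 for Lamp1 and 0.048 to 0.24 for Scarb2. The sign also turned for Acp2 under TMM rescaling (-0.0081), with equal medians for Glb1 (0.0067), Man2b1 (0.014), Ppt1 (0.0085) and Lamp2 (0.0055), and for Man2b1 with edgeR (0.0042) and DESeq2 (0.00032). Deviations of same-numbered libraries from their group means had correlations of 0.013, 0.31 and 0.13 across genes, and those of the other 6 pairs of a KO and a WT library lay between -0.26 and 0.15. Replicate 3 of KO correlated best with replicate 1 of WT, and the numbers were not treated as pairs. With the replicate block 1 gene was called lower among all genes and 0 members, and the median over members was -0.037. Every member had at least 661 reads in each library.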
